A study of Homo sapiens with 12 samples.

Results

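The transcripts of 9 genes of the DNA damage and stress response were followed in HEK293 cells with and without the kinase AMPK: CDKN1A, MDM2, PPM1D, CCNG1, BTG1, BTG2, GADD45A, GADD45B and TP53INP1. They were chosen by name, as the rows whose Ensembl identifier carries one of these symbols in GENCODE release 44, and all 9 were found among the 26058 genes listed in the deposited table. Values are RPKM, reads per kilobase of gene after division by library size, so that levels can be set side by side between genes. Each of the 9 had a mean of at least 0.5 RPKM and entered the test, for which 22067 genes qualified.

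These genes belong to the response that halts the cell cycle, repairs DNA or starts apoptosis when DNA is damaged or transcription is blocked. They include brakes on the cell cycle (CDKN1A, which encodes the kinase inhibitor p21, and the BTG genes), stress sensors of the GADD45 family, and inhibitors that end the response: MDM2 is a ubiquitin ligase, and PPM1D encodes the phosphatase Wip1, which dephosphorylates the kinases of the damage response. CDKN1A, BTG2 and GADD45B can also be switched on rapidly by growth factors.

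HEK293 is a human embryonic kidney line. Wild type (WT) cells were compared with a CRISPR double knockout of PRKAA1 and PRKAA2, which encode the catalytic α subunits of AMPK (AMPK KO), to ask whether the action of cordycepin on growth factor signalling needs this kinase. Cordycepin is an adenosine analogue without the 3′ hydroxyl group. All cells were serum starved for 24 h and then received 0.025% DMSO alone, DMSO for 20 min followed by EGF for 30 min, or 25 µM cordycepin in DMSO for 20 min followed by EGF for 30 min. The 6 groups were therefore WT DMSO, WT DMSO+EGF, WT cordycepin+EGF, AMPK KO DMSO, AMPK KO DMSO+EGF and AMPK KO cordycepin+EGF, with 2 libraries each, numbered replicates 2 and 3. The EGF concentration was given as 15 in units of nM or of µM, and the DMSO-only treatment as 20 or 50 min, which was not resolved here. No cells received cordycepin without EGF, and whether the AMPK KO line is a single clone was not given in the sources used here. The study calls the libraries of a group biological replicates, and the labels do not tell whether they came from separate cultures, so p-values measure the spread between these libraries. In RNA from whole cultures, more cells with a transcript and more transcript per cell cannot be told apart.

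The libraries held 12016743 to 25104904 reads on listed genes, except WT DMSO replicate 3, which held 3806335 and stood apart in depth. Differences of the 9 genes from WT DMSO are therefore given with and without it where leaving it out changed a call or moved a value printed here by over 1.5 times. The 9 genes rested on 37 reads (GADD45B in that library) to 10530 reads (MDM2 in WT cordycepin+EGF replicate 2). PRKAA1 had 11.2 to 21.9 RPKM in the 6 WT libraries and 7.03 to 8.51 RPKM in the 6 AMPK KO libraries, without overlap. PRKAA2 had 6.78 to 12.1 RPKM in WT and 5.39 to 7.43 RPKM in AMPK KO libraries, which overlapped. Of the HEK293 markers, VIM, KRT8, KRT18 and NEFL had group means of 9.30 RPKM or more and NEFM lay below 0.20 RPKM. The blood marker PTPRC lay below 0.05 RPKM and the fibroblast marker COL1A1 had group means of 0.390 to 1.20 RPKM.

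Promoter windows are shown for MDM2, PPM1D, BTG1 and GADD45B, the members whose window held one of the motifs searched. RefSeq windows on GRCh38.p14, from 250 bases before to 50 after a transcription start, were found for 7 of the 9 genes (not for GADD45A and TP53INP1). Both strands were searched for TGACGTCA (the cyclic AMP response element), TGACTCA or TGAGTCA (AP-1), TATAAA (the TATA box) and the CArG box of serum response factor. Capitals mark the matches: AP-1 in the window of the internal MDM2 start (chr12:68808767-68809066, plus strand), the cyclic AMP response element in PPM1D (chr17:60599943-60600242, plus strand), and the TATA box in BTG1 (chr12:92145797-92146096, minus strand) and GADD45B (chr19:2475877-2476176, plus strand).
MDM2 internal start: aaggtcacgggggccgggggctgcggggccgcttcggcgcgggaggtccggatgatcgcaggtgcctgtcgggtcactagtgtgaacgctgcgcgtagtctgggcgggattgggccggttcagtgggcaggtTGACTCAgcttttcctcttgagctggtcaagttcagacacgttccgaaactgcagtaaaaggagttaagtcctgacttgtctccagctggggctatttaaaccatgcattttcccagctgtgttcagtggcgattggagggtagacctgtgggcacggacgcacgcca
PPM1D: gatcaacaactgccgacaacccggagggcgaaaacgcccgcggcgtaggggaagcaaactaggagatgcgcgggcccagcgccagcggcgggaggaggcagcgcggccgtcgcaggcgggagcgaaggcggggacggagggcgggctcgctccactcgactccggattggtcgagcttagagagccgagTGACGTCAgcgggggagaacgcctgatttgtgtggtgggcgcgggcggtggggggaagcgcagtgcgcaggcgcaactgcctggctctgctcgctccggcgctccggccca
BTG1: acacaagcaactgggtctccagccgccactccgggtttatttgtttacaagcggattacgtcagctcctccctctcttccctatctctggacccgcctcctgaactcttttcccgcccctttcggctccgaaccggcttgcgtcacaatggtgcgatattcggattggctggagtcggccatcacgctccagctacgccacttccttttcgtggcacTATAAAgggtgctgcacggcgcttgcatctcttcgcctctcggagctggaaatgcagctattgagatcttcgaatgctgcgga
GADD45B: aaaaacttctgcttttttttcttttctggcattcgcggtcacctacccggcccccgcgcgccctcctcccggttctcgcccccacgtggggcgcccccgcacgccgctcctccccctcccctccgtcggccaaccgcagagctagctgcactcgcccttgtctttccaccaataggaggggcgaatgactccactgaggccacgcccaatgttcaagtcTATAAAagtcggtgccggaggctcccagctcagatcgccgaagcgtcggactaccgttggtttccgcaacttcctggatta
Counted from the start, with no position 0, the AP-1 match of MDM2 began at -118, the element of PPM1D at -61, and the TATA boxes of BTG1 and GADD45B at -33 and -31. Of 34796 distinct windows, 1.84% held the cyclic AMP response element, 4.96% AP-1, 11.6% TATAAA and 1.30% a CArG box. The windows of CDKN1A, BTG2, CCNG1 and the upstream MDM2 start held none of these. These matches describe letters in a short window and not binding, which was not measured.

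CCNG1 was the most abundant of the 9, with a mean of 83.0 RPKM over the 12 libraries, followed by MDM2 with 54.6 RPKM. CDKN1A (17.5 RPKM), BTG2 (17.5 RPKM), GADD45A (16.2 RPKM) and BTG1 (15.3 RPKM) lay close together. PPM1D (8.08 RPKM), GADD45B (6.91 RPKM) and TP53INP1 (5.52 RPKM) were the lowest. For every member the highest of the 6 group means was 1.51 to 2.00 times the lowest.

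**Figure D1:**
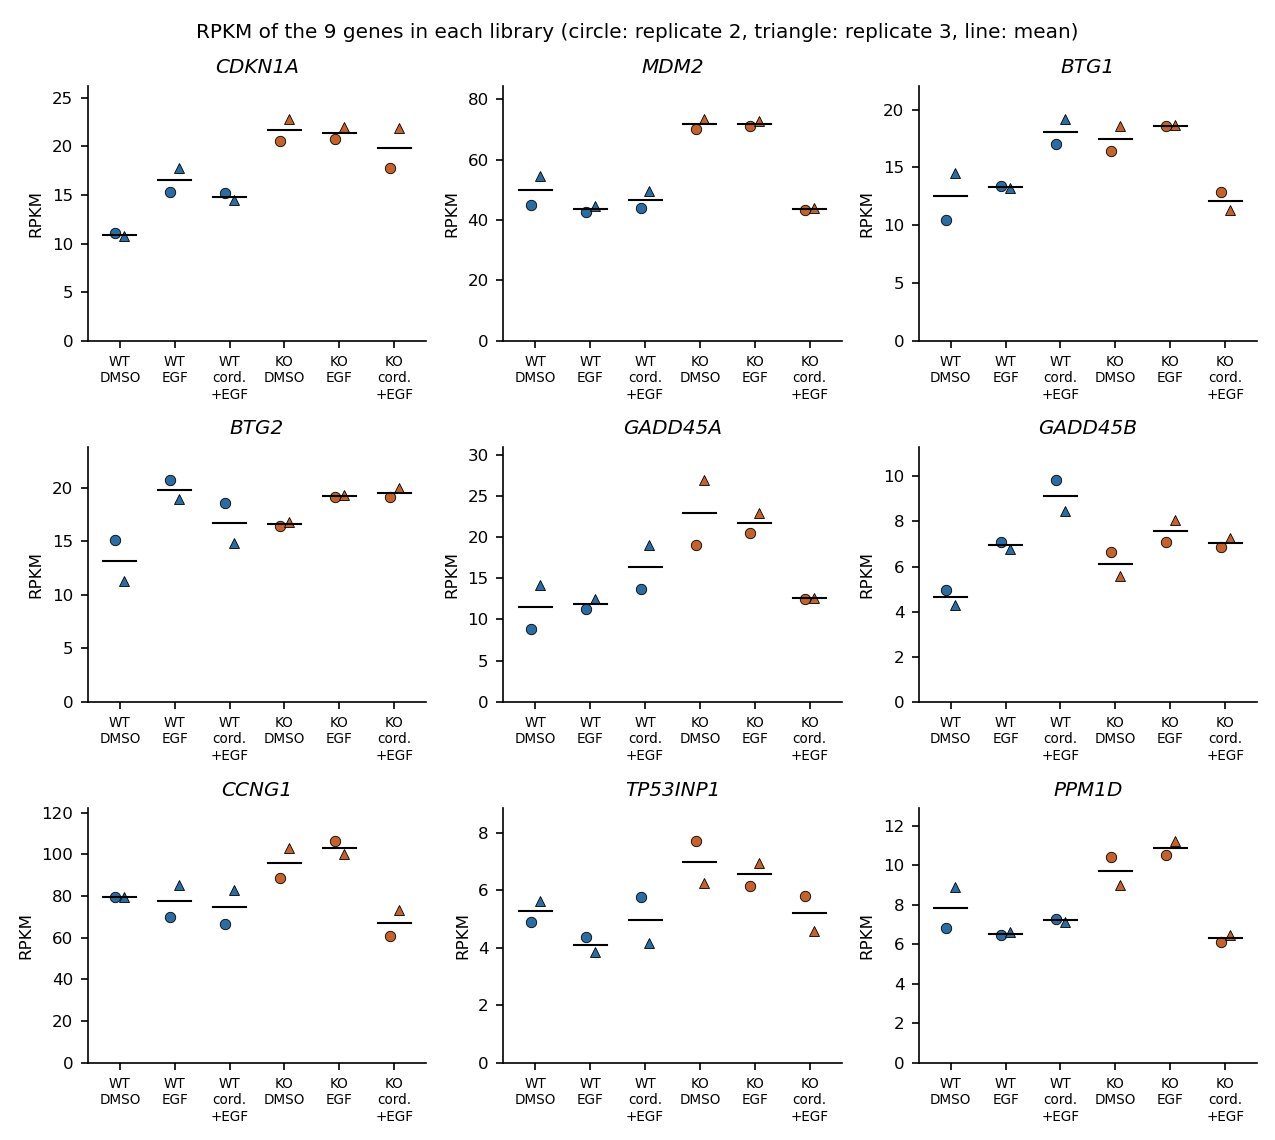
RPKM as deposited (y axis, from 0) of each of the 9 genes in the 12 libraries; x axis: the 6 groups, blue for WT and orange for AMPK KO, with a circle for replicate 2, a triangle for replicate 3 and a line at the mean. MDM2 stood above 70 RPKM in the 4 AMPK KO libraries without cordycepin and at 42.5 to 54.5 RPKM in the other 8 libraries.

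The AMPK KO line was first compared with WT under the same treatment. Each comparison was tested with limma on log2(upper-quartile-scaled RPKM + 0.5) in 1 fit of all 12 libraries, and a gene was called at a Benjamini-Hochberg adjusted p under 0.05 over the 22067 genes. All fold changes below are on that log2 scale, with the moderated standard error (SE). In DMSO all 9 members had higher values in AMPK KO, with a median log2 difference of 0.35 against 0.01 over all genes tested. In 8 of the 9 the 2 AMPK KO libraries lay above both WT libraries, against 25.3% of all genes tested. Of the 9, 5 had an unadjusted p under 0.05 (21.3% of all genes, counting both directions), and 1, CDKN1A, passed adjustment (0.281% of all genes). In DMSO+EGF 7 of the 9 lay above WT without overlap (31.3% of all genes), the same 7 were higher at an unadjusted p under 0.05 (11.1%), and MDM2 and PPM1D passed adjustment (0.929%). The median was 0.48, against -0.005 over all genes.

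**Figure D2:**
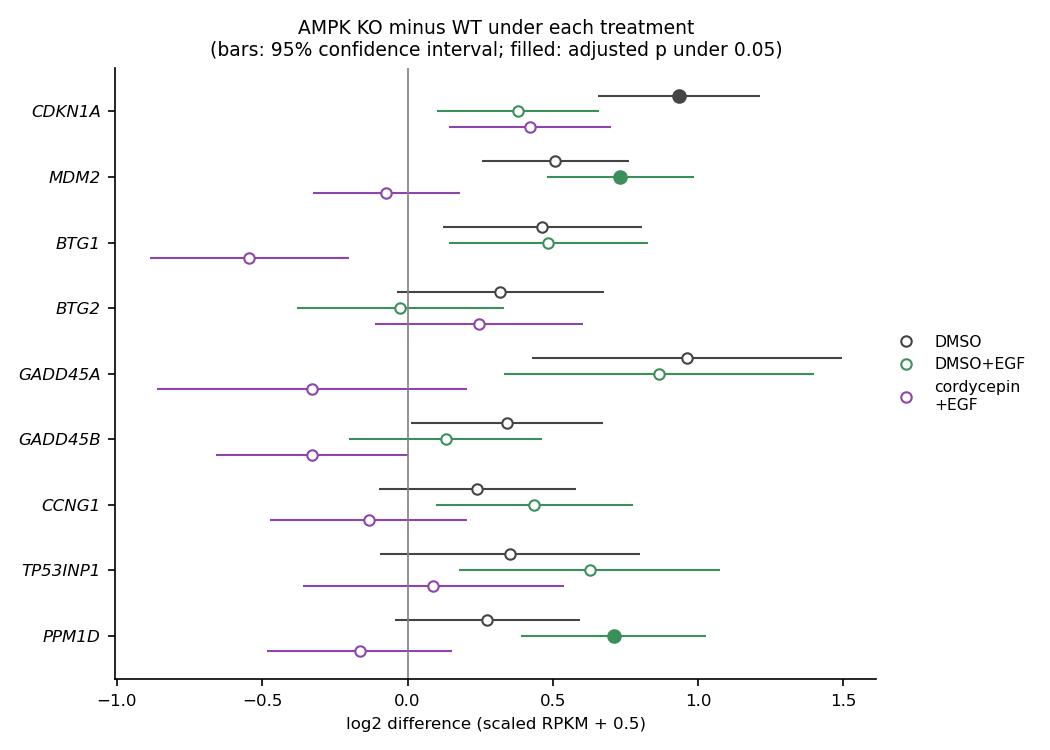
Log2 difference of AMPK KO minus WT (x axis, scaled RPKM + 0.5) for the 9 genes (y axis) in DMSO (grey), DMSO+EGF (green) and cordycepin+EGF (purple), with 95% confidence intervals of the limma fit; filled points passed adjustment. CDKN1A in DMSO (0.93), and MDM2 (0.73) and PPM1D (0.71) in DMSO+EGF, are the filled points.

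Under cordycepin+EGF the members were divided between the directions. AMPK KO libraries lay above WT in 2 of the 9 genes (23.7% of all genes tested), CDKN1A and BTG2, and below WT in 5 (22.1%), MDM2, BTG1, GADD45A, GADD45B and PPM1D. With voom on recovered reads 0 of the 9 passed adjustment (1.40% of the 21245 genes it tested). With limma 0 passed (0.118% of all genes) and 2 had an unadjusted p under 0.05 (13.7%). The 2 were CDKN1A, with a log2 difference of 0.42 (SE 0.123, unadjusted p = 0.00755, adjusted p = 0.253), and BTG1, with -0.54 (SE 0.151, unadjusted p = 0.00579, adjusted p = 0.237). The comparisons between lines share libraries with the comparisons of treatments that follow, so the same AMPK KO DMSO+EGF libraries enter both.

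Cordycepin was compared with DMSO+EGF within each line. In AMPK KO cells 6 of the 9 genes lay below the DMSO+EGF libraries without overlap (27.0% of all genes tested): MDM2, PPM1D, CCNG1, BTG1, GADD45A and TP53INP1. At an unadjusted p under 0.05 the first 5 of these were lower (10.1% of all genes), and 1, MDM2, passed adjustment (0.0861%). The median of the 9 was -0.56, against 0.06 over all genes. In WT cells 5 of the 9 lay above DMSO+EGF without overlap (29.2% of all genes): MDM2, PPM1D, BTG1, GADD45A and GADD45B. For MDM2 this held only after scaling, and the libraries overlapped in RPKM as deposited. CDKN1A and BTG2 lay below DMSO+EGF without overlap in RPKM as deposited, and overlapped after scaling. BTG1 and GADD45B were higher at an unadjusted p under 0.05 (8.86%). With limma 0 of the 9 passed adjustment (0.00453%), and 0 did with voom, which called 3.89% of the 21245 genes it tested.

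The difference between the 2 lines in the cordycepin effect was tested as an interaction. It was negative, that is, lower in AMPK KO, at an unadjusted p under 0.05 for 5 of the 9 (10.5% of all genes tested): MDM2, PPM1D, CCNG1, BTG1 and GADD45A. With limma 0 members passed adjustment (0% of all genes, since 0 of the 22067 did), and 4 did with voom on recovered reads, which called 9.30% of the 21245 genes it tested: MDM2, PPM1D, BTG1 and GADD45A. These 5 interactions ran from -1.19 to -0.57, with adjusted p of 0.122 to 0.179 in the limma fit.

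**Figure D3:**
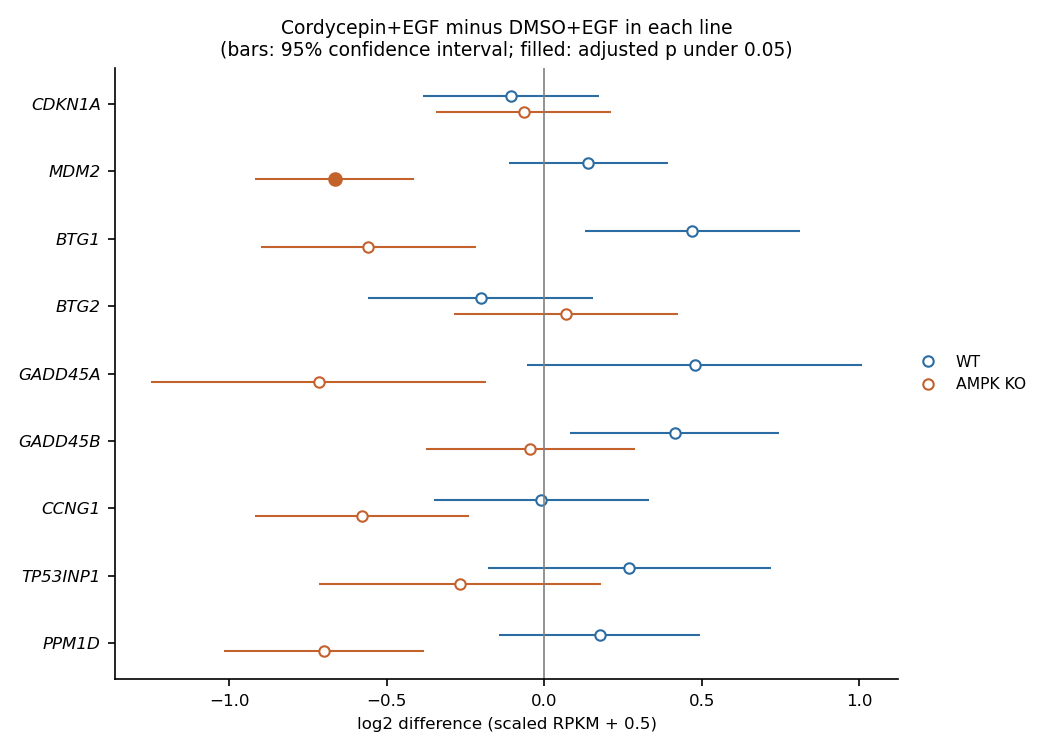
Log2 difference of cordycepin+EGF minus DMSO+EGF (x axis, scaled RPKM + 0.5) for the 9 genes (y axis) in WT (blue) and AMPK KO (orange), with 95% confidence intervals of the limma fit; the filled point, MDM2 in AMPK KO (-0.67), passed adjustment. For MDM2, BTG1, GADD45A, CCNG1 and PPM1D the orange intervals lie below 0, and for BTG1 and GADD45B the blue ones lie above 0.

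EGF itself, compared with DMSO alone, was accompanied in WT cells by higher CDKN1A, BTG2 and GADD45B. These 3 of the 9 lay above DMSO without overlap (18.7% of all genes tested) and had an unadjusted p under 0.05 (6.18%). MDM2, TP53INP1 and PPM1D lay below DMSO without overlap (18.0%) with unadjusted p of 0.0913 to 0.115. The values of MDM2 and PPM1D depended on which WT DMSO library was kept. MDM2 went from -0.21 to -0.08 without the shallow replicate 3 and to -0.34 without replicate 2. For PPM1D the value of -0.27 became -0.09 without replicate 3 and -0.44 without replicate 2. In AMPK KO cells 4 of the 9, BTG1, BTG2, GADD45B and PPM1D, lay above DMSO (20.2%), and 0 were higher at an unadjusted p under 0.05 (1.03%). With limma 0 members passed adjustment in WT (0.0227% of all genes) or in AMPK KO (0.0136%). With voom 0 did in either line (0.0424% and 0.0188% of the 21245 genes it tested).

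**Figure D4:**
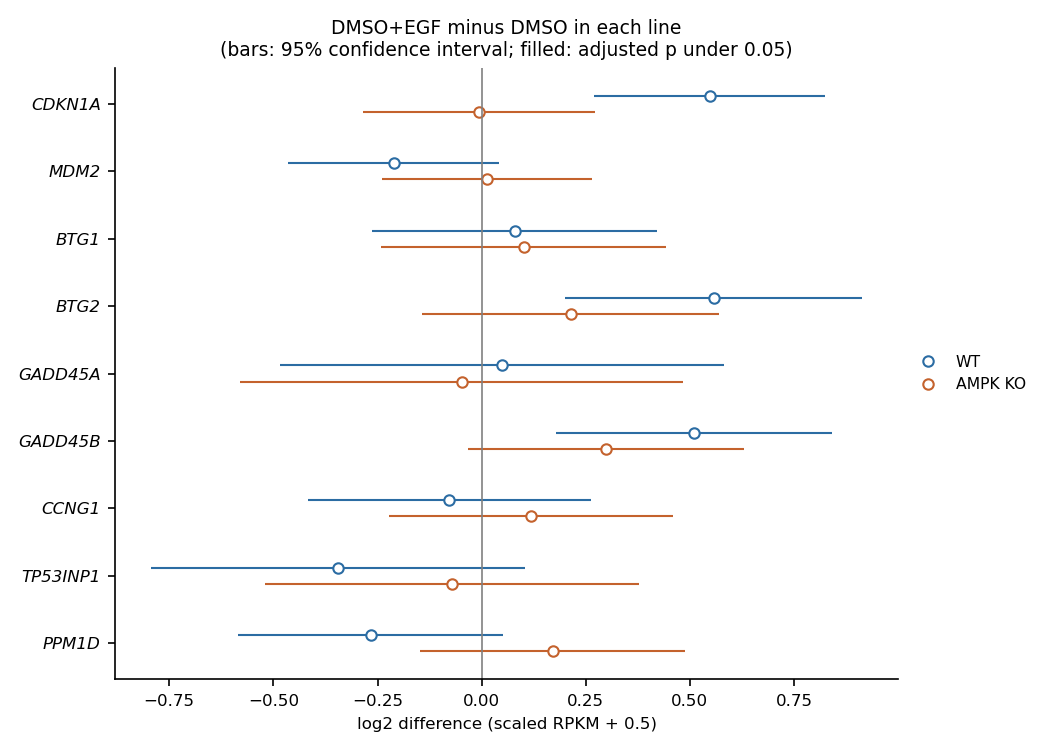
Log2 difference of DMSO+EGF minus DMSO (x axis, scaled RPKM + 0.5) for the 9 genes (y axis) in WT (blue) and AMPK KO (orange), with 95% confidence intervals of the limma fit; no point passed adjustment. The WT intervals of CDKN1A, BTG2 and GADD45B lie above 0, and those of the same genes in AMPK KO include 0.

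The difference between the lines in the EGF effect had an unadjusted p under 0.05 for 1 of the 9, CDKN1A (5.38% of all genes tested were lower at that threshold). With limma 0 members passed adjustment for this difference (0% of all genes), and 0 did with voom (0% of the 21245 genes it tested). For BTG2 it was -0.34 (95% confidence interval -0.85 to 0.16) and for GADD45B -0.21 (-0.68 to 0.26), so that the EGF effects of these genes in the 2 lines were not told apart here. Without WT DMSO replicate 3 these were -0.14 for BTG2 and -0.11 for GADD45B, and without replicate 2 they were -0.55 and -0.31.

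MDM2 (ENSG00000135679, chromosome 12) encodes a ubiquitin ligase and has an internal promoter, which is shown above. It had 45.1 and 54.5 RPKM in WT DMSO, 42.5 and 44.7 RPKM in WT DMSO+EGF, and 43.97 and 49.4 RPKM in WT cordycepin+EGF (replicates 2 and 3). In AMPK KO it had 70.2 and 73.3 RPKM in DMSO, 71.1 and 72.7 RPKM in DMSO+EGF, and 43.4 and 43.9 RPKM in cordycepin+EGF. The 4 AMPK KO libraries without cordycepin lay above the other 8 libraries, and the cordycepin libraries of AMPK KO lay within the WT range. In DMSO+EGF the difference of AMPK KO from WT was 0.73 (SE 0.112, adjusted p = 0.0250), and in DMSO it was 0.51 (SE 0.112, adjusted p = 0.0717). The DMSO value was 0.64 without WT DMSO replicate 3 and 0.38 without replicate 2. With cordycepin MDM2 fell by 0.67 on the log2 scale in AMPK KO (SE 0.112, adjusted p = 0.0490), and in WT the value was 0.14 (95% confidence interval -0.11 to 0.39). The interaction was -0.81 (SE 0.158, unadjusted p = 0.000654, adjusted p = 0.122). The cordycepin call lay just under the threshold: its log2 fold change kept between -0.73 and -0.65 under 17 alternatives, while the adjusted p ranged from 0.0118 to 0.301 and was 0.0563 with a replicate block within each line.

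PPM1D (ENSG00000170836, chromosome 17) encodes the phosphatase Wip1. Its levels in WT were 6.82 and 8.90 RPKM in DMSO, 6.46 and 6.60 RPKM in DMSO+EGF, and 7.27 and 7.15 RPKM in cordycepin+EGF. In AMPK KO they were 10.4 and 8.99 RPKM in DMSO, 10.5 and 11.2 RPKM in DMSO+EGF, and 6.14 and 6.45 RPKM in cordycepin+EGF. The pattern was that of MDM2, to which PPM1D had a Pearson r of 0.941 over the 12 libraries, which form 6 groups. It was higher in AMPK KO than in WT in DMSO+EGF by 0.71 (SE 0.141, adjusted p = 0.0492), with an adjusted p of 0.00307 to 0.305 over 16 alternatives and of 0.0651 with a replicate block within each line. In DMSO the difference was 0.27 (SE 0.141, adjusted p = 0.291), where the libraries overlapped after scaling but not in RPKM as deposited. It was 0.45 without WT DMSO replicate 3 and 0.10 without replicate 2. With cordycepin the value was -0.70 in AMPK KO (SE 0.141, unadjusted p = 0.000774, adjusted p = 0.0620) and 0.18 in WT (SE 0.141, adjusted p = 0.541).

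CCNG1 (ENSG00000113328, chromosome 5) encodes cyclin G1, which recruits a phosphatase to MDM2. It had 79.7 RPKM in both WT DMSO libraries, 69.7 and 85.1 RPKM in WT DMSO+EGF, and 66.5 and 82.8 RPKM in WT cordycepin+EGF. In AMPK KO the values were 88.8 and 103 RPKM in DMSO, 106 and 100 RPKM in DMSO+EGF, and 60.7 and 73.1 RPKM in cordycepin+EGF. The WT groups overlapped each other, and the AMPK KO libraries with cordycepin lay below those without it. The cordycepin difference in AMPK KO was -0.58 (SE 0.150, unadjusted p = 0.00387, adjusted p = 0.0894), and in WT it was -0.01 (95% confidence interval -0.35 to 0.33).

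CDKN1A (ENSG00000124762, chromosome 6) encodes p21, the inhibitor of cyclin-dependent kinases. It had 11.0 and 10.8 RPKM in WT DMSO, 15.3 and 17.8 RPKM in WT DMSO+EGF, and 15.2 and 14.5 RPKM in WT cordycepin+EGF. The AMPK KO libraries had 20.5 and 22.8 RPKM in DMSO, 20.8 and 22.0 RPKM in DMSO+EGF, and 17.8 and 21.9 RPKM in cordycepin+EGF. WT DMSO was lowest, the other WT groups followed, and the 3 AMPK KO groups overlapped each other at the top. In DMSO CDKN1A was higher in AMPK KO by 0.93 (SE 0.123, adjusted p = 0.0228). The difference was 0.91 without WT DMSO replicate 3 and 0.96 without replicate 2, and lay between 0.87 and 0.99 over 16 alternatives. Among fits that kept all libraries of the 2 groups, the call was lost with array weights and with only the groups compared. Leaving out an AMPK KO DMSO library changed the call too. In DMSO+EGF the difference between the lines was 0.38 (SE 0.123, adjusted p = 0.118).

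CDKN1A was 0.55 higher with EGF in WT (SE 0.123, unadjusted p = 0.00160, adjusted p = 0.428) and differed by -0.01 in AMPK KO (95% confidence interval -0.28 to 0.27). The EGF effects of the 2 lines differed by -0.55 (SE 0.174, unadjusted p = 0.0111, adjusted p = 0.570). With cordycepin, the differences from DMSO+EGF were -0.11 in WT (95% confidence interval -0.38 to 0.17) and -0.07 in AMPK KO (-0.34 to 0.21). CDKN1A thus stood apart from MDM2 and PPM1D: it was higher in AMPK KO, but its interaction with cordycepin was 0.04 (95% confidence interval -0.35 to 0.43).

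BTG1 (ENSG00000133639, chromosome 12) and BTG2 (ENSG00000159388, chromosome 1) encode antiproliferative proteins that bind the CCR4-NOT deadenylase. BTG1 had 10.4 and 14.5 RPKM in WT DMSO, 13.4 and 13.2 RPKM in WT DMSO+EGF, and 17.0 and 19.2 RPKM in WT cordycepin+EGF. AMPK KO cells had 16.4 and 18.6 RPKM in DMSO, 18.6 RPKM in both DMSO+EGF libraries, and 12.9 and 11.3 RPKM in cordycepin+EGF. The order of the groups with and without cordycepin was thus opposite in the 2 lines. The cordycepin difference was 0.47 in WT (SE 0.151, unadjusted p = 0.0126, adjusted p = 0.267) and -0.56 in AMPK KO (SE 0.151, unadjusted p = 0.00498, adjusted p = 0.0966). Their difference of -1.03 (SE 0.214, unadjusted p = 0.000972) did not pass adjustment (adjusted p = 0.122). BTG1 was higher in AMPK KO than in WT in DMSO by 0.46 (SE 0.151, adjusted p = 0.148), which became 0.69 without WT DMSO replicate 3 and 0.24 without replicate 2. Its pseudogene BTG1P1, with a mean of 1.42 RPKM, could share reads with it.

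BTG2 had 15.1 and 11.3 RPKM in WT DMSO, 20.7 and 18.9 RPKM in WT DMSO+EGF, and 18.6 and 14.8 RPKM in WT cordycepin+EGF. In AMPK KO it had 16.4 and 16.8 RPKM in DMSO, 19.2 and 19.3 RPKM in DMSO+EGF, and 19.1 and 19.9 RPKM in cordycepin+EGF. EGF was accompanied by higher BTG2 in both lines, by 0.56 in WT (SE 0.158, unadjusted p = 0.00640, adjusted p = 0.438) and by 0.21 in AMPK KO (SE 0.158, unadjusted p = 0.208). The WT value rested partly on the shallow library: it was 0.76 without WT DMSO replicate 2 and 0.35 without replicate 3. BTG2 did not share the pattern of MDM2, with r = -0.158 between them over the 12 libraries, and its cordycepin differences were -0.20 in WT and 0.07 in AMPK KO.

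GADD45A (ENSG00000116717, chromosome 1) and GADD45B (ENSG00000099860, chromosome 19) encode small stress-induced proteins that bind and activate MAP3K4 upstream of p38 and JNK. GADD45A had 8.82 and 14.2 RPKM in WT DMSO, 11.2 and 12.4 RPKM in WT DMSO+EGF, and 13.7 and 19.1 RPKM in WT cordycepin+EGF. The AMPK KO values were 19.0 and 26.9 RPKM in DMSO, 20.5 and 22.9 RPKM in DMSO+EGF, and 12.5 and 12.7 RPKM in cordycepin+EGF. It was among the most variable members between replicates, and the AMPK KO libraries without cordycepin were nonetheless above WT of the same treatment. The difference of AMPK KO from WT was 0.96 in DMSO (SE 0.235, unadjusted p = 0.00275, adjusted p = 0.0887) and 0.87 in DMSO+EGF (SE 0.235, unadjusted p = 0.00513, adjusted p = 0.0858). In DMSO it was 1.28 without WT DMSO replicate 3 and 0.64 without replicate 2. The cordycepin difference was -0.72 in AMPK KO (SE 0.235, unadjusted p = 0.0139, adjusted p = 0.137) and 0.48 in WT (SE 0.235, unadjusted p = 0.0735), an interaction of -1.19 (SE 0.333, adjusted p = 0.127).

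GADD45B had 4.97 and 4.30 RPKM in WT DMSO, 7.10 and 6.77 RPKM in WT DMSO+EGF, and 9.83 and 8.46 RPKM in WT cordycepin+EGF. In AMPK KO the values were 6.63 and 5.59 RPKM in DMSO, 7.07 and 8.06 RPKM in DMSO+EGF, and 6.87 and 7.26 RPKM in cordycepin+EGF. In WT the 3 groups did not overlap and stood in the order DMSO, DMSO+EGF, cordycepin+EGF. EGF was accompanied by a difference of 0.51 in WT (SE 0.146, unadjusted p = 0.00695, adjusted p = 0.438) and cordycepin by a further 0.41 (SE 0.146, unadjusted p = 0.0199, adjusted p = 0.275). In AMPK KO the cordycepin difference was -0.05 (95% confidence interval -0.38 to 0.29), and the interaction was -0.46 (SE 0.207, unadjusted p = 0.0539, adjusted p = 0.241). GADD45G, the third gene of the family, was lower still, with 0.365 ± 0.0144 RPKM in WT DMSO against 1.74 ± 0.452 RPKM in the AMPK KO line under DMSO (SD, n = 2 for each). The WT DMSO mean was near the floor, below the 0.5 added to each value before the log. The difference of GADD45G between these 2 groups passed adjustment (1.34, SE 0.217, adjusted p = 0.0434). It was 1.36 without WT DMSO replicate 3 and 1.33 without replicate 2.

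TP53INP1 (ENSG00000164938) encodes a stress-induced protein that promotes autophagy and apoptosis. It had 4.90 and 5.64 RPKM in WT DMSO, 4.37 and 3.87 RPKM in WT DMSO+EGF, and 5.76 and 4.16 RPKM in WT cordycepin+EGF. AMPK KO libraries held 7.72 and 6.26 RPKM in DMSO, 6.15 and 6.97 RPKM in DMSO+EGF, and 5.82 and 4.60 RPKM in cordycepin+EGF. The AMPK KO libraries without cordycepin lay above all 6 WT libraries, and those with cordycepin overlapped the WT range. In DMSO+EGF the difference between the lines was 0.63 (SE 0.198, unadjusted p = 0.0116, adjusted p = 0.115), and the cordycepin difference in AMPK KO was -0.27 (SE 0.198, unadjusted p = 0.209).

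Other genes of the damage response were counted from a list of 25, of which 24 were tested. In DMSO 20 of the 24 had higher values in AMPK KO than in WT and 4 had lower ones, with a median of 0.42, against 0.01 over all genes. Of these, 11 were higher and 1 lower at an unadjusted p under 0.05, against 2658 higher and 2049 lower of all 22067 genes. XPC, which encodes a sensor of nucleotide excision repair, passed adjustment (0.281% of all genes were called higher). In WT DMSO XPC stood at 7.40 ± 0.00306 RPKM and in the AMPK KO counterpart at 13.4 ± 0.259 RPKM (SD, n = 2 for each), a difference of 0.80 (SE 0.101, adjusted p = 0.0223). The next by p were DDB2, another nucleotide excision repair sensor, with 0.62 (SE 0.110, adjusted p = 0.0511), and AEN, an apoptosis-enhancing nuclease, with 0.69 (SE 0.144, adjusted p = 0.0650). Without WT DMSO replicate 3 the list had 19 higher and 5 lower values, with a median of 0.51 against -0.02 over all genes. Without replicate 2 it had 20 higher and 4 lower values, with a median of 0.31 against 0.02. DDB2 had 0.72 without replicate 3 and 0.52 without replicate 2, and AEN had 0.89 and 0.50. A list of 12 genes that regulate the damage response, all tested, went the other way in DMSO. Of these, 4 had higher and 8 had lower values in AMPK KO, with a median of -0.10. At an unadjusted p under 0.05 in the limma fit, 2 were higher and 4 lower, and 0 passed adjustment.

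In DMSO+EGF 17 of the 24 had higher values in AMPK KO and 7 lower ones (median 0.20, against -0.005 over all genes), with 7 higher and 1 lower at an unadjusted p under 0.05 (11.1% and 11.4% of all genes). XPC again passed (0.83, SE 0.101, adjusted p = 0.0146). RRM2B, the damage-inducible ribonucleotide reductase subunit, had a difference of 0.68 (SE 0.145, adjusted p = 0.0530), and ZMAT3, an RNA-binding zinc finger protein, had 0.58 (SE 0.142, adjusted p = 0.0682). Of the 12 regulators, 8 had higher and 4 lower values in AMPK KO in DMSO+EGF (median 0.10). At an unadjusted p under 0.05, 2 of them were higher and 3 lower. COL1A1, the fibroblast marker, differed between the same libraries, with 1.20 RPKM in WT and 0.390 RPKM in AMPK KO (-0.92, SE 0.188, adjusted p = 0.0499). It also had differences of 0.55 with EGF in WT (unadjusted p = 0.0164) and of 0.46 with cordycepin in AMPK KO (unadjusted p = 0.0358), and its part in the results above was not tested.

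With cordycepin, 10 of the 24 had higher and 14 lower values in AMPK KO (median -0.08, against 0.06 over all genes), with 1 higher and 5 lower at an unadjusted p under 0.05 (11.7% and 10.1% of all genes). In WT 17 had higher and 7 lower values (median 0.16, against 0.03), with 5 higher and 1 lower at that threshold (8.86% and 7.13% of all genes). In AMPK KO the smallest p belonged to RRM2B (-0.68, SE 0.145, adjusted p = 0.0644), PMAIP1, the proapoptotic Noxa (-0.74, SE 0.197, adjusted p = 0.0949), and ZMAT3 (-0.51, SE 0.142, adjusted p = 0.105). In WT they belonged to XPC (0.37, SE 0.101, adjusted p = 0.262), PMAIP1 (-0.60, SE 0.197, adjusted p = 0.267) and POLH, the bypass polymerase of translesion synthesis (0.39, SE 0.151, adjusted p = 0.286). PMAIP1 thus had lower values with cordycepin in both lines. The interaction had an unadjusted p under 0.05 for 8 of the 24, all negative (10.5% of all genes), and for 0 of them did it pass adjustment. Of the 12 regulators, 4 had higher and 8 lower values with cordycepin in each line, with medians of -0.07 in AMPK KO and -0.17 in WT. At an unadjusted p under 0.05, 1 was higher and 1 lower in AMPK KO, and 1 was higher and 3 lower in WT.

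**Figure D5:**
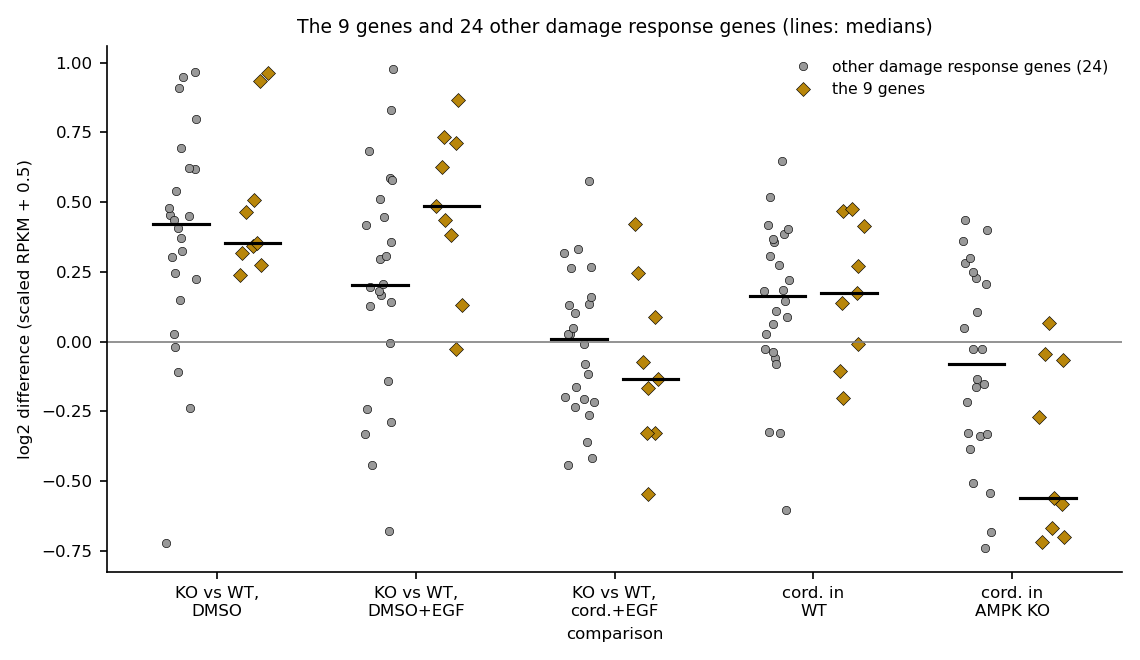
Log2 differences (y axis, scaled RPKM + 0.5) of the 9 genes (gold diamonds) and of 24 other damage response genes (grey circles) in 5 comparisons (x axis), with lines at the medians. In AMPK KO against WT the medians of the 9 genes were 0.35 in DMSO, 0.48 in DMSO+EGF and -0.13 in cordycepin+EGF, and those of the other damage response genes were 0.42, 0.20 and 0.01.

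Relatives of the members (11 genes, 9 tested) and their partners (15 genes, all tested) were counted in the same way. With cordycepin in AMPK KO, 8 of the 9 relatives had lower values (2 at an unadjusted p under 0.05) and 13 of the 15 partners had lower values (7 at an unadjusted p under 0.05), with medians of -0.23 and -0.32. Over all genes 10.1% were lower at that threshold and the median was 0.06. The relatives were led by CCNG2, which encodes cyclin G2 (-0.56, SE 0.209, adjusted p = 0.176). The partners were led by CDK4, a kinase driven by D-type cyclins (-0.53, SE 0.160, adjusted p = 0.117), and CNOT8, the deadenylase bound by BTG proteins (-0.43, SE 0.136, adjusted p = 0.130). In WT 6 of the 9 relatives and 6 of the 15 partners had higher values with cordycepin, 1 and 0 of them at an unadjusted p under 0.05, and 3 partners were lower at that threshold (8.86% of all genes higher, 7.13% lower). In DMSO 4 of the 9 relatives had higher and 5 lower values in AMPK KO than in WT (median -0.17). At an unadjusted p under 0.05, 1 relative was higher and 2 were lower. Of the 15 partners, 10 had higher and 5 lower values (median 0.11), with 2 higher and 1 lower at that threshold. Over all genes 12% were higher and 9.29% lower at it, and the median was 0.01. GADD45G was the 1 of these 24 genes that passed adjustment.

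Over the 12 libraries the 9 genes did not form 1 pattern. MDM2, PPM1D, GADD45A and CCNG1 were alike, with Pearson r of 0.729 to 0.941 between them on the log2 scale, and BTG1 was most like GADD45A (r = 0.878). BTG2 was most like GADD45B (r = 0.663) and CDKN1A (r = 0.657), and its r with MDM2, BTG1, GADD45A, CCNG1, TP53INP1 and PPM1D lay between -0.212 and -0.03. These values describe 12 libraries in 6 groups and share their depth and line. Among 11668 protein-coding genes, those most like MDM2 were APAF1, the apoptosome scaffold (r = 0.984), and ADNP2 (r = 0.979). Those most like PPM1D were SWAP70 (r = 0.977) and AFF4 (r = 0.974). The others were CAMKV (r = 0.968) and ITM2C (r = 0.957) for CDKN1A, CRK (r = 0.973) and RAB11A (r = 0.971) for CCNG1, ACOX3 (r = 0.950) and MAP7D1 (r = 0.950) for BTG1, TP53I11 (r = 0.937) and TPST1 (r = 0.905) for BTG2, DXO (r = 0.981) and GOLGA3 (r = 0.977) for GADD45A, LIN7B (r = 0.883) and MAGED4 (r = 0.833) for GADD45B, and TOR1AIP1 (r = 0.964) and INTS4 (r = 0.955) for TP53INP1.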

How the data were processed

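RNA of 12 HEK293 samples had been sequenced as stranded, ribosomal RNA-depleted libraries with paired reads of 150 bases. The authors mapped them to GRCh38.p13 and used Rsubread for counting, and their deposited table holds RPKM, with no counts. Annotation and strand setting were not given in the sources used here, so reads of overlapping genes may be shared (DINOL at CDKN1A, CPM at MDM2, BTG1-DT and LINC01619 at BTG1, NDUFAF6 at TP53INP1). Replicate 1, discarded by the authors, was not analysed here. The 2 rows without a gene were left out, 1 gene of the lists is not reported here, and 26029 of 26058 identifiers were found in GENCODE release 44.

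RPKM was divided by each library's upper quartile, following the study, and analysed as log2(value + 0.5), which understates changes of low genes. Genes with a mean of at least 0.5 RPKM were fitted with limma 3.58.1 (R 4.3.3; lmFit, contrasts.fit and a trended eBayes; two-sided) as 6 group means. Residual degrees of freedom were 6, or 8.96 once moderated, and p-values were adjusted by Benjamini-Hochberg separately for the 9 comparisons. For 96.25% of genes, the 9 members included, RPKM converted to whole reads (tolerance 0.05 of a read) in every library, which allowed voom as an alternative. Reads have no molecular identifiers, so counts overstate the precision.

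Further alternatives were pseudocounts (0.1 and 1), filters (none, or 1 RPKM), scaling (RPKM as deposited, or median-ratio), fits of only the groups compared, replicate blocks (over all libraries, or within a line), eBayes without trend, array weights and leaving out each library. A crossed block was added after seeing the data. Groups and replicate numbers were those of the labels. Pairing by number was checked: deviations of same-numbered libraries had r of 0.136, 0.282 and 0.314 over genes for the pairs of WT groups. For pairs of AMPK KO groups r was -0.122 to 0.031, and for the 9 pairs across lines -0.081 to 0.322, highest between WT cordycepin+EGF and AMPK KO DMSO. That pair across lines lay above every pair of WT groups, so these values do not settle whether the number pairs libraries. Scripts were tested on simulated data. The members and lists were chosen with earlier results of these data known. All 9 members are named, and from other lists the genes with an adjusted p under 0.05, up to 3 with the smallest unadjusted p under 0.05 for a list and comparison, and the 2 genes most like each member. The 12 regulators of the damage response are an exception and are given by counts only.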

Additional observations from a re-analysis of the deposited data

Results flagged for a closer look

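Groups of 2 libraries are too small for a test of single outlying libraries. The effects of a treatment in the 2 lines were set against each other as interactions (AMPK KO minus WT, log2 scale, limma), and 7 of 18 are listed because the unadjusted p was under 0.05 or because the libraries moved in opposite directions without overlap in the 2 lines. None of the 7 passed adjustment over all genes.

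For cordycepin, the libraries of MDM2, BTG1, GADD45A and PPM1D moved in opposite directions, lower in AMPK KO and higher in WT, with interactions of -0.81 (unadjusted p = 0.000654, adjusted p = 0.122), -1.03 (0.000972, 0.122), -1.19 (0.00589, 0.127) and -0.87 (0.00174, 0.122). For MDM2 the WT libraries overlapped when RPKM was taken as deposited. CCNG1 had an interaction of -0.57 (unadjusted p = 0.0250, adjusted p = 0.179), with overlapping WT libraries.

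For EGF, the interaction of CDKN1A was -0.55 (unadjusted p = 0.0111, adjusted p = 0.570). PPM1D lay below DMSO in WT and above it in AMPK KO, with an interaction of 0.44 (unadjusted p = 0.0558, adjusted p = 0.582), which was 0.26 without WT DMSO replicate 3 and 0.61 without replicate 2.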

How the results depend on the processing

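Of the 81 log2 fold changes of members, 65 kept their sign under every alternative, and the largest of the other 16 was 0.13 in size. The count of members called was less steady. For cordycepin in AMPK KO it was 1 (MDM2), and 0 with a pseudocount of 0.1, a filter at 1 RPKM, RPKM as deposited, median-ratio scaling, only the groups compared, eBayes without trend, a replicate block within each line or a crossed block, but 3 with array weights and 5 with voom. For AMPK KO against WT in DMSO it was 1 (CDKN1A), 0 with array weights or only the groups compared, and 4 with voom. In DMSO+EGF it was 2 (MDM2 and PPM1D), 1 (MDM2) with RPKM as deposited, median-ratio scaling, eBayes without trend or a replicate block over all libraries or within each line, 4 with voom or only the groups compared, and 7 with array weights. The cordycepin interaction gave 0, and 4 with array weights, voom or only the groups compared. In the other 5 comparisons these settings left the count at 0. Among these, voom called 827 genes for cordycepin in WT, against 1 in the main fit. For AMPK KO against WT in cordycepin+EGF it called 298, against 26. The counts over all genes moved too. For cordycepin in AMPK KO 104 genes were called, 18 with the replicate block within each line, 26 with the crossed block, 1193 with array weights and 1264 with voom. For AMPK KO against WT they were 97 in DMSO (7 with array weights, 1 with only the groups compared, 1665 with voom) and 383 in DMSO+EGF (5041, 2215 and 2325), and for the cordycepin interaction 0 (1457, 1128 and 1975), of 22067 genes tested or 21245 with voom. The cause of these changes was not tested.

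Leaving out 1 library at a time leaves a group of 1 library, assumed to vary like the others. Counts of calls from these fits are therefore not given: calls of members were lost in some and gained in others, and calls over all genes changed too. Over all alternatives, these fits included, the cordycepin difference of MDM2 in AMPK KO lay between -0.73 and -0.65. In DMSO+EGF the difference of AMPK KO from WT lay between 0.71 and 0.76 for MDM2 and between 0.66 and 0.76 for PPM1D. In DMSO that of CDKN1A lay between 0.87 and 0.99. The EGF difference of BTG2 in WT lay between 0.35 and 0.76. With the replicate block, no other call of a member changed. In the shallow library GADD45B rested on 37 reads, the fewest of any member. In the limma fit its differences from WT DMSO had an SE of 0.146, and those of GADD45A had the largest, 0.235.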
